A study of Drosophila melanogaster with 3 samples.

Results

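Eip75B ChIP-seq peaks that lie inside genes but away from promoters were examined in whole prepupae of Drosophila melanogaster. A peak was taken when its summit, the base of highest signal in the region, lay inside the body of at least 1 protein-coding gene and was more than 1 kb and at most 10 kb from the nearest transcription start of a protein-coding gene. Of the 7803 optimal peaks that the authors deposited for the group, 2329 met this rule (29.8%, 95% exact Clopper-Pearson interval 28.8% to 30.9%), and they are called intragenic summits here. The rule used position only, and no value of signal, recurrence between replicates or base sequence entered it. Base sequence is not independent of position, however. Sequence that meets the rule has 39.6% G+C in introns and 53.5% in coding exons. The other summits lay within 1 kb of a start (3311), between genes at the same 1 to 10 kb (1022) or more than 10 kb from any start (1141).

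All animals were of the strain Eip75B-MiMIC-GFP, in which an added intronic exon encodes eGFP and makes a fusion gene of the endogenous Eip75B. Males and females were pooled at the prepupal stage, the age is labelled unknown, and chromatin was sonicated to 200 to 800 bp and precipitated with an antibody against GFP. There is a single group of 3 biological replicates, with no second genotype, treatment or time, so the data describe 1 tagged line, and whole animals mix all tissues. The labels do not say which Eip75B isoforms carry the tag. Of the intragenic summits, 2227 lay in the body of 1 gene, 99 in 2 overlapping genes and 3 in more.

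E75, the protein encoded by Eip75B, belongs to the nuclear receptors. The moulting hormone ecdysone turns its gene on, and heme is bound in its ligand pocket. It binds the same kind of DNA site as the receptor Hr3, an AGGTCA core preceded by an AT-rich stretch, and it represses activation by Hr3, for which ftz-f1 is a known target gene in prepupae. Introns of fly developmental genes often hold enhancers, the sequences that set where and when a gene is transcribed.

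The sequences of 7 intragenic summits are printed as examples, picked as stated here and not representative of all. Each is the dm6 plus strand from 50 bases before the summit to 50 bases after it, within an intron throughout. The first 4 are shown because they hold an E75/Hr3 site, which is in capitals. Only 16 of the 2329 intragenic summits (0.687%) hold such a site within 50 bp. The last 3 are shown because they are the strongest intragenic summits in the list and the strongest in the receptor gene Eip78C, and have neither an E75/Hr3 site nor AGGTCA, so they carry no capitals. The windows are chr3L:18759339-18759439 and chr3L:18754021-18754121 in ftz-f1, chr3L:17972510-17972610 in Eip75B, chr3R:23175589-23175689 in Irk1, chr2L:481006-481106 in ush, chr2L:6612660-6612760 in CG11050 and chr3L:21253845-21253945 in Eip78C.
ftz-f1, strongest: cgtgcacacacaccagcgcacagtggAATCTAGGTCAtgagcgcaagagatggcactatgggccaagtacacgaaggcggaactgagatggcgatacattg
ftz-f1, weaker: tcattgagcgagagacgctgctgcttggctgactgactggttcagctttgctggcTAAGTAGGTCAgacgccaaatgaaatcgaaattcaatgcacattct
Eip75B: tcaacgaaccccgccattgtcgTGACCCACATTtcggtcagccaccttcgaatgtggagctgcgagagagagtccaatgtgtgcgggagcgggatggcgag
Irk1: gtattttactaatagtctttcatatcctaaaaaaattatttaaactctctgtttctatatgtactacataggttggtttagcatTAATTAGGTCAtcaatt
ush: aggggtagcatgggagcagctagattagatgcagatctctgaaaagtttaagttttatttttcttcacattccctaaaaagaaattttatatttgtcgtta
CG11050: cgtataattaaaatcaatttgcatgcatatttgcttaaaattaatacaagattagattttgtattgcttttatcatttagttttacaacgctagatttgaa
Eip78C: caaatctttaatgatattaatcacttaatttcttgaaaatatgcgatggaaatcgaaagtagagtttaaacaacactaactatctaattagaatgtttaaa
The site lies on the minus strand in Eip75B and on the plus strand in the others. The Eip75B site has GGGTCA in place of AGGTCA. In Irk1 the site overlaps the homeodomain motif TAATTA.

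Intragenic summits lay almost wholly in introns. Of the 2329, 2259 were intronic (97.0%), and the share in the replicates' own top lists, the 7803 regions of highest signal in each, was 97.1% ± 0.329 (SD, n = 3). Introns make up 61.8% of the ground, which is all sequence that meets the same position rule. The density was 77.4 summits per Mb of intron (95% exact Poisson interval 74.3 to 80.7), 43.0 per Mb in 5′ UTRs (17 summits), 8.64 per Mb in 3′ UTRs (39 summits) and 1.06 per Mb in coding exons (14 summits). Coding exons are 27.8% of the ground, and only 0.601% of the intragenic summits lay in them. The intervals cover counting error only, since the sources used here give no number of reads and the depth is unknown.

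Introns that are the first of a transcript were denser in summits than other introns. Such introns held 1535 intragenic summits, or 102 per Mb (96.5 to 107), and the other introns held 724, or 51.5 per Mb (47.8 to 55.4). The replicates gave 98.8 ± 4.74 and 49.3 ± 1.28 per Mb (SD, n = 3), so the difference was larger than their spread. Short introns held few summits. Introns under 500 bp had 6.08 per Mb (13 summits) and those of 500 to 2000 bp had 49.0 per Mb, whereas those of 2 to 5 kb, 5 to 10 kb, 10 to 20 kb and 20 kb or longer had 85.3, 93.6, 85.9 and 83.5 per Mb. Above 2 kb, all these densities lay in overlapping counting intervals. First and other introns were not compared at like length, so their difference is not separated from that of length.

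**Figure D1:**
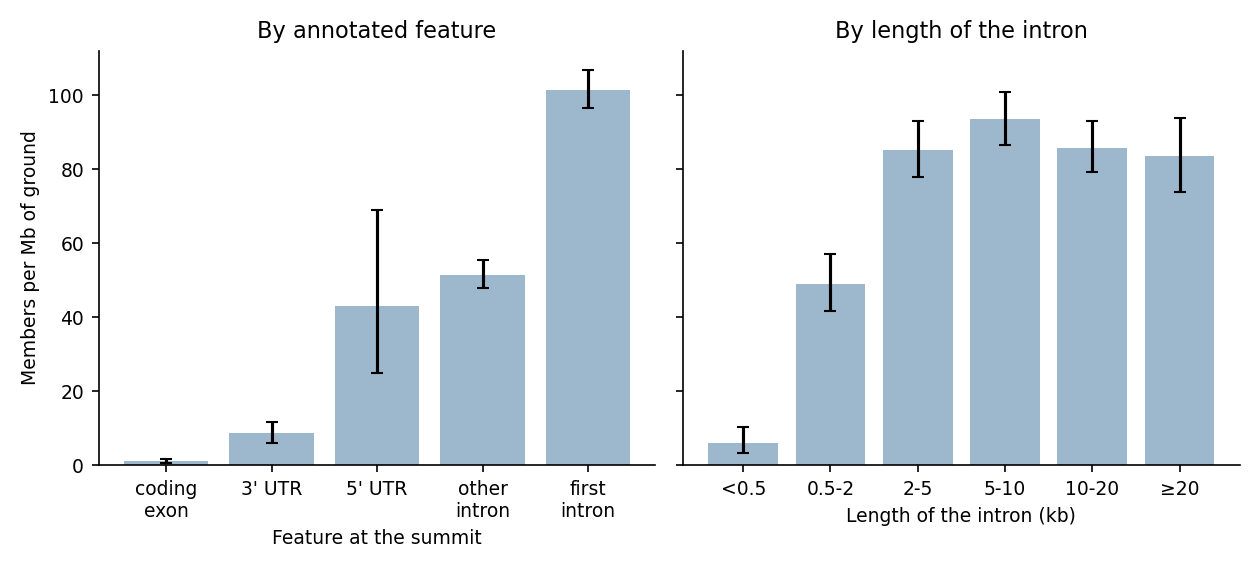
Intragenic summits per Mb of ground (vertical axes), by annotated feature at the summit (left) and by length of the intron in kb (right). Bars are the optimal list and whiskers are 95% exact Poisson intervals. Coding exons stand at 1.06 per Mb and first introns at 102, and introns under 0.5 kb stand at 6.08 against 83.5 to 93.6 in the 4 classes of 2 kb and over.

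Inside genes, density showed no steady fall with distance from the start. Over the 9 bins of 1 kb, the density of intragenic summits ranged from 43.5 per Mb at 8 to 9 kb to 58.4 at 7 to 8 kb, and was 49.8 at 1 to 2 kb. Between genes it was 66.6 per Mb at 1 to 2 kb (58.6 to 75.4), above the 49.8 (46.1 to 53.7) inside genes, and 41.6 to 53.4 in the 8 bins beyond. In the replicates, the values of that bin were 65.6 ± 0.557 between genes and 48.7 ± 2.04 inside them (SD, n = 3). At 6 to 7 kb the replicates were apart in the opposite direction, with 52.5 ± 1.88 inside and 42.0 ± 2.22 between genes (SD, n = 3), though the counting intervals of the optimal list overlapped there. All 3 replicates were also higher inside genes at 7 to 8 kb and 9 to 10 kb. They were lower inside genes in each bin from 2 to 5 kb and at 8 to 9 kb, so the direction changed from bin to bin. Over all distances the ground of intragenic summits, 47.2 Mb, had 49.3 summits per Mb (47.3 to 51.4), against 52.2 between genes, 122 within 1 kb of starts and 28.6 beyond 10 kb. The ratio to intergenic ground was 0.945 and in the replicates 0.937 ± 0.0428, with all 3 below 1. Counted from 1 start per gene, its outermost, that ratio was 1.05, so its direction depends on which starts are used. Intragenic ground is 27.8% coding exon, at 1.06 summits per Mb, and ground between genes has no protein-coding exons. Introns of the intragenic ground alone had 77.4 per Mb. Neither the ratio nor the bins were split by feature, so they do not compare like kinds of sequence.

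**Figure D2:**
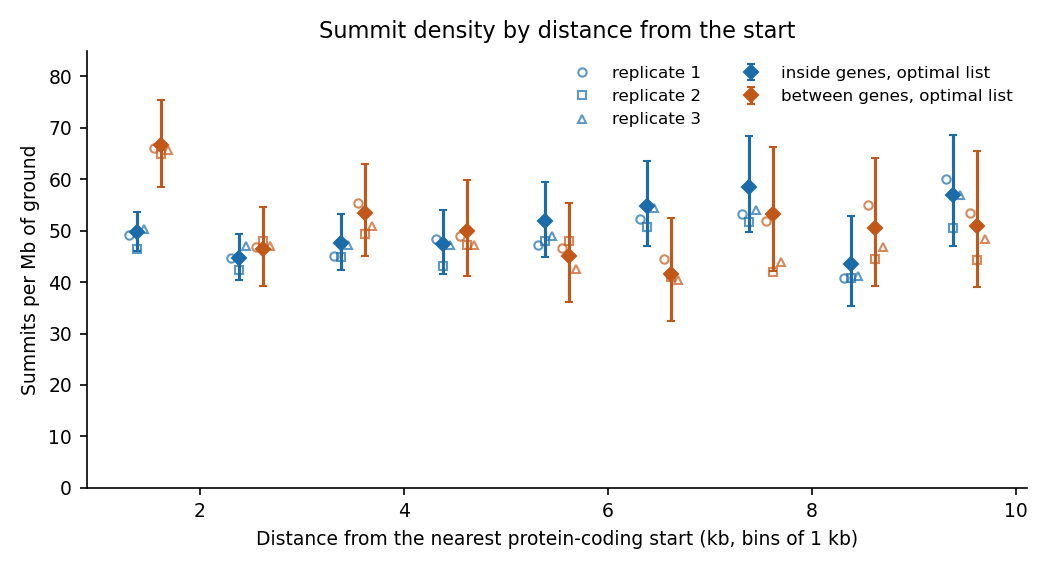
Summits per Mb of ground by distance from the nearest protein-coding start in bins of 1 kb. Filled diamonds are the optimal list with 95% exact Poisson intervals and open symbols are the 3 replicates' top lists. At 1 to 2 kb the classes are apart, at 49.8 inside and 66.6 between genes. From 2 to 10 kb their counting intervals overlap, and the replicates are higher inside genes in some bins, among them 6 to 7 kb, and lower in others.

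Summits lay upstream and downstream of the nearest start in shares close to those of the ground. The nearest start lay upstream, in the sense of its own transcript, for 1620 intragenic summits (69.6%, 67.6% to 71.4%), and 71.2% of the ground lies that way. It belonged to a gene that holds the summit for 1839 (79.0%) and to another gene for 490. At the edges of the rule, the 163 intragenic summits of 1000 to 1200 bp had a median signal of 177, and the 187 summits inside genes at 800 to 1000 bp had 176. The 59 at 9500 to 10000 bp had 165, and the 53 inside genes at 10000 to 10500 bp had 156.

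On chromosome 4, much of which is heterochromatin, 2 intragenic summits were found, or 3.02 per Mb (0.365 to 10.9). The replicates' top lists held 3, 2 and 1 there. The other arms had between 44.9 per Mb, on 2L, and 54.2, on X.

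The sites of intragenic summits were AT-rich relative to the sequence on both sides. In the 20 bp at the summit the mean G+C was 32.9%, between 200 and 400 bp to either side it was 44.5%, and from 800 to 1000 bp it was 40.6%. From the shoulders to the summit, it fell by 11.8 percentage points in the top list of replicate 1, fell by 9.80 in that of replicate 2 and fell by 10.3 in that of replicate 3. An exact sign-flip permutation test over the 3 replicates gave p = 0.25, the smallest it allows. The 1643 intragenic summits with intron over the whole 1 kb to either side gave 32.5% at the centre and 44.6% on the shoulders, a profile about as deep without any exon in the window. All intron ground of the rule has 39.6% G+C, which the summits lay below and the shoulders above.

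For the 2259 intronic summits the mean G+C within 50 bp of the summit was 33.8% (SD 8.84 over summits), the lowest was 11.9% and the highest 66.3%. The value was below that of the intron ground in 1778 of them (78.7%, 77.0% to 80.4%). Stronger summits were more AT-rich. In quartiles of the intragenic summits' own signal, weakest first, the mean was 35.9%, 35.0%, 33.4% and 31.7%, and in the replicates' lists it fell in the same order from 36.9% ± 0.574 to 32.2% ± 0.487 (SD, n = 3). The median region width of these quartiles was 444, 444, 265 and 307 bp. Some weaker summits lie on the shoulder of a stronger one. In such a pair in Hr4 the weaker had 43.6% and the stronger 29.7%, but in a pair in Eip75B these were 52.5% and 57.4%. Whether the trend holds without close pairs, or at like width, was not tested. Summits between genes had a like profile, with 31.8% at the centre and 45.9% on the shoulders. At promoter summits the centre was at 36.5% and the shoulders at 43.1%, a smaller dip. How sequencing or shearing depends on base composition in these libraries was not tested.

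**Figure D3:**
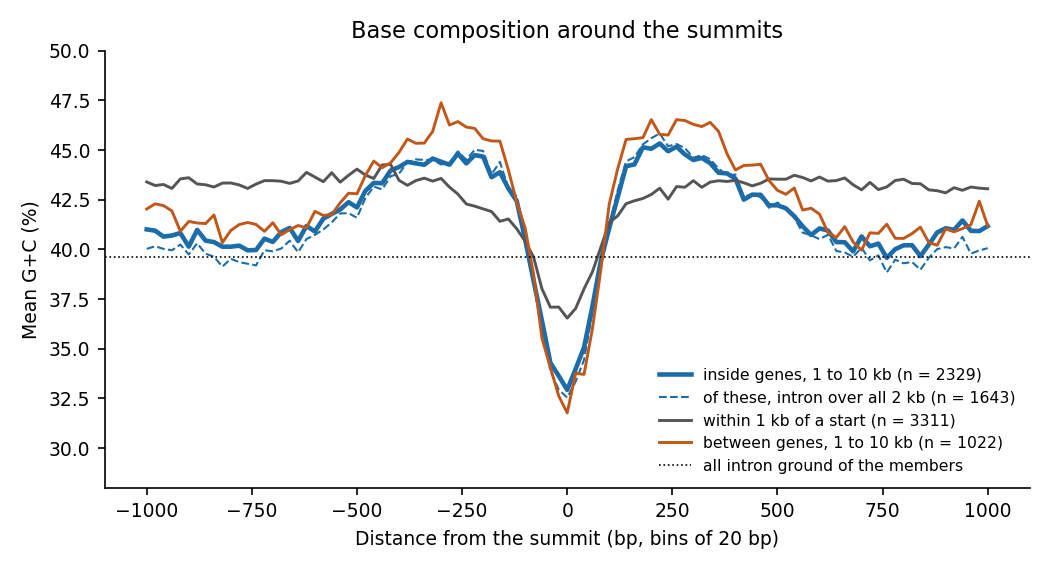
Mean G+C in percent in bins of 20 bp by distance from the summit, for intragenic summits, those with intron over the whole window, promoter summits and summits between genes. The intragenic curve falls from 44.5% on the shoulders to 32.9% at the summit, and the dotted line is the 39.6% of the intron ground.

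AT-rich motifs were more frequent at the summits than beside them, and repeats of GA and CA less. The GATA motif TGATAA was within 50 bp of 9.27% of intragenic summits and 5.41% of windows of the same length centred 300 bp to the left, and the homeodomain motif TAATTA was in 8.89% and 5.84%. The GAGA motif GAGAG was in 12.5% and 16.8%, and CACACACA in 1.67% and 4.42%, both rarer at the summit in each of the 3 replicates. All optimal summits had like shares: at the summit and on the flank, TGATAA was in 8.68% and 5.78%, TAATTA in 8.48% and 5.45%, CACACACA in 1.76% and 4.15%, and GAGAG at 954 and 1246 of the 7803 summits and flanks. The promoter motif TATCGATA, known as the DRE, was in 0.172% of intragenic summits and 1.84% of promoter summits. The flank windows lie on the shoulders of higher G+C described above. Whether the differences between summit and flank go beyond base composition was not tested. All motifs were searched on both strands, and a match describes the sequence only.

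The E75/Hr3 site was rare under intragenic summits. Within 50 bp it was found at 16 of the 2329 (0.687%, 0.393% to 1.11%), against 0.577% of all 7803 optimal summits and 0.429% of the flanking windows. The difference from the flank was 0.258 percentage points, and it was positive in all 3 replicates' lists, at 0.220, 0.231 and 0.258 (exact sign-flip permutation p = 0.25, the smallest possible). Its size depended on the processing: it was 0.0806 with 1 start per gene, 0.417 with 1 summit per merged region and 0.601 with a window of 100 bp to either side. Among optimal summits found in the top lists of both other replicates, it was 0.417 leaving out replicate 1 and 0.398 leaving out replicate 2. The core AGGTCA, which is part of the site in 1 of its forms, was found at 76 (3.26%, 2.58% to 4.07%), against 2.51% of all summits and 2.53% of the flanks. Its difference from the flank was 0.926, 0.833 and 0.344 percentage points in the replicates (exact sign-flip permutation p = 0.25). Whether the excess of the E75/Hr3 site differs from that at promoter summits was not shown: the difference of 0.0462 percentage points had an exact sign-flip permutation p = 0.50 and did not have the same sign in all replicates. The palindromic ecdysone response element, the site of EcR with its partner usp, was found at 0 of the 2329, with an upper end of the exact interval of 0.158%. It was found at 2 of all 7803 optimal summits (0.0256%) and in 1 of the flanking windows. The absence is thus near the share of all summits and is not particular to intragenic ones.

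Of the 16 intragenic summits with an E75/Hr3 site, 5 lay in genes of the ecdysone hierarchy: 2 in ftz-f1, 2 in Eip75B and 1 in br. That is 31.2% of them (11.0% to 58.7%), whereas 93 of all 2329 intragenic summits (3.99%, 3.23% to 4.87%) lay in genes of that list. For AGGTCA the number was 12 of 76 (15.8%, 8.43% to 26.0%). These intervals treat summits as independent, although many share a gene: Eip75B alone held 27 of the 93. The list of genes was also chosen with results of these data known. All 16 summits with the E75/Hr3 site were intronic, and all 3 top lists held 10 of them. Their mean G+C was 44.6%, above the 34.0% of all intragenic summits, and their signals ran from 94.7 to 1330 with a median of 181. The others lay in Irk1, which encodes an inward rectifier potassium channel, cic, the repressor Capicua, kibra, an upstream component of the Hippo pathway, and kdn, a citrate synthase, and in CG12769, bbg, CG17646, ps, CG5455, Fhos and Src42A. These genes were named after their values were seen. Over all their intragenic summits, Eip75B, ftz-f1 and br also had a high mean G+C, at 44.1%, 44.7% and 47.0%. Whether the share in ecdysone genes goes beyond base composition was not tested.

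The signals of intragenic summits spanned the range of the optimal list. Their median signal, the authors' value per region, was 165 (quartiles 118 and 256), against 167 at promoters, 162 between genes and 157 beyond 10 kb. The median percentile rank differed by -0.910 points from that of promoter summits and was 1.14 points above that of intergenic ones, and both signs held in the 3 replicates (exact sign-flip permutation p = 0.25 for each). The difference from promoter summits had the other sign, 0.167 points above, when 1 start per gene was used. It was -8.20 points in the stricter list of the 3901 strongest peaks. Among optimal summits found in the top lists of both other replicates it was -2.24, -4.84 and -3.11 points, leaving out replicate 1, 2 and 3. Its size was thus not settled. In the strongest 300 optimal peaks 68 were intragenic, and promoter summits held 198.

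Of the 2329, 1522 (65.3%, 63.4% to 67.3%) were in every replicate's top list, against 65.2% of all optimal summits, 537 in 2 lists, 256 in 1 and 14 in none. Single top lists held 85.3%, 81.5% and 86.3% of them. By quartiles of signal over the optimal list, weakest first, 11.3%, 60.8%, 93.7% and 97.1% of the intragenic summits were in every top list. A top list is itself a cut on signal, and the optimal list comes from the same replicates, so a rise with signal is largely built in. The whole replicate lists of 30000 regions, which include background, held 98.6%, 98.8% and 98.7% of the intragenic summits. The difference from intergenic summits in the share per replicate had an exact sign-flip permutation p = 0.75, with replicate 3 opposite in sign to the others. Another optimal summit lay within 1 kb of 743 intragenic summits (31.9%), against 29.9% of all summits.

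The strongest intragenic summits were ranked alike in the 3 replicates. The highest signal of the whole optimal list, 3259, was at 481056 on 2L, in an intron of ush, which encodes a cofactor of GATA factors, and 1368 bp from the start of cbt, which encodes a zinc finger factor. Its signal was 1115, 966 and 1087 in replicates 1, 2 and 3, rank 1, 1 and 2 of their lists. CG11050 followed, with 2786 at 6612710 on 2L and 963, 862 and 952 in the replicates. The rank was 3, 3 and 4. After it came CG32772, with 2001 at 4910394 on X and 650, 690 and 663 in the replicates. No other intragenic summit was among the 15 highest optimal peaks.

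Next in order were summits in CG32486 (1778), in Trl, the gene of GAGA factor (1645), in pum, which encodes an RNA-binding translational repressor (1601), in CG12769 (1589), in CG3726 (1569) and in LpR2, a lipophorin receptor gene (1506). They were followed by foraging (for), a cGMP-dependent protein kinase gene (1348), and by ftz-f1 (1330) and Eip78C (1303), both nuclear receptor genes of the ecdysone response. CG9837 (1227), the nuclear receptor gene Hr4 (1220) and ImpL2, which encodes a secreted binding protein of insulin-like peptides (1214), completed the 15. In the replicates the signal at ftz-f1 was 411, 448 and 455, at Eip78C it was 374, 430 and 499, and at Hr4 it was 416, 368 and 426. The lowest rank that any of the 15 had in any replicate was 96, at Eip78C in replicate 1. The nearest start was that of another gene for 5 of the 15, those in ush, CG32486, Trl, Eip78C and ImpL2.

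**Figure D4:**
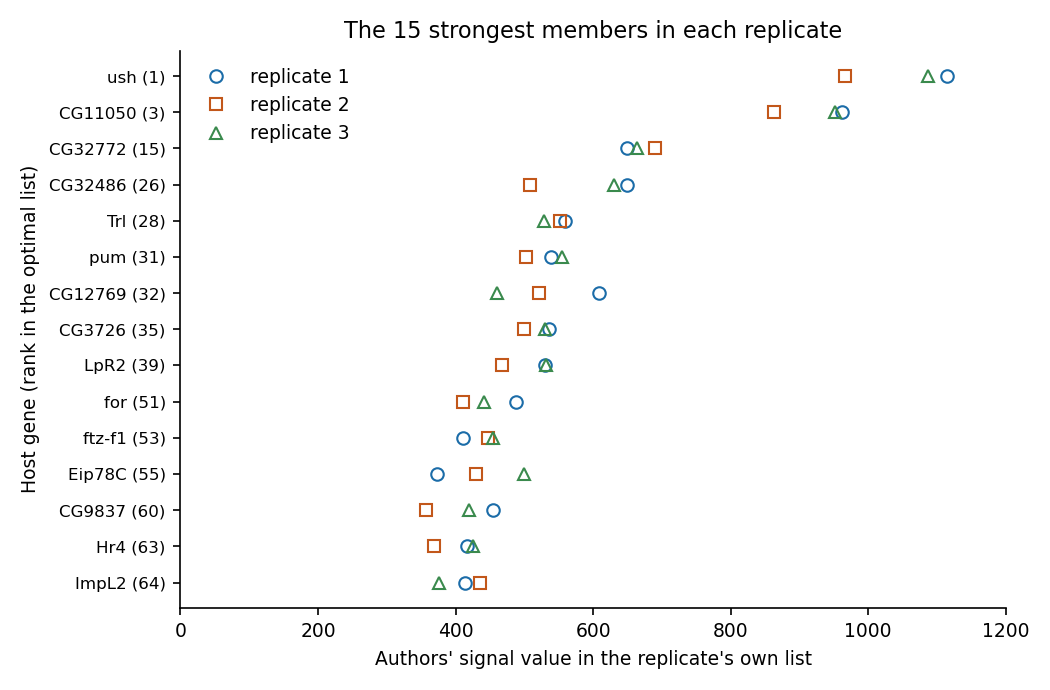
Authors' signal value of the 15 strongest intragenic summits in each replicate's own list, by host gene, with the rank in the optimal list in brackets. The summit in ush stands at 966 to 1115 and that in CG11050 at 862 to 963, above all the others in each replicate.

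Intragenic summits were concentrated in a small share of genes. Of the 10083 protein-coding genes with any ground, 1022 held at least 1 (10.1%). Of these, 498 held 1, 404 held 2 to 4 and 120 held 5 or more, and the 120 accounted for 856 intragenic summits (36.8%). Genes that held a summit had a median length of 19814 bp, and the other genes with ground 2843 bp. The share of genes with a summit was 0.495% for genes with under 2 kb of ground, 5.54% at 2 to 5 kb, 18.9% at 5 to 10 kb, 39.3% at 10 to 20 kb, 58.0% at 20 to 40 kb and 76.8% at 40 kb or more. Ground therefore has to be set beside every count per gene. A promoter summit was present at 648 of the 1022 host genes (63.4%, and 63.6% ± 5.36 in the replicates, SD, n = 3). It was present at 2131 of the genes with ground and no intragenic summit (23.5%), which are shorter.

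The gene with the most was Eip75B itself, the gene of the tagged protein (FBgn0000568; 3L, 17950953 to 18064696, minus strand), with 27. The replicates' top lists held 30, 24 and 26 there. All 27 were intronic and 16 recurred in all 3 top lists. Their signals ran from 94.0 to 820 with a median of 188. The strongest, at 18009161, had 298, 262 and 258 in the replicates, and the next, at 17964852, had 607 in the optimal list and 211, 211 and 197. Per 10 kb of ground the gene had 3.32.

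Mnt, which encodes a transcriptional antagonist of Myc, followed with 19, and 15, 15 and 17 in the replicates. At 8.11 per 10 kb of its 23433 bp of ground, its summits were denser than those of Eip75B. Of the 19, 14 were in all 3 top lists, and the strongest had a signal of 729. Some were close pairs. Those at 3694412 and 3694611, 199 bp apart, had the same replicate values of 96.4, 48.9 and 94.8. Eip75B had such pairs too, as at 17964852 and 17965054, 202 bp apart. Pairs were counted as separate summits, which raises counts, densities and recurrence per gene. Next came tara, a gene of a nuclear cofactor, with 14, then shn, which encodes a zinc finger factor of the Dpp response, with 13. Tlk, a protein kinase gene on X, had 12, with a highest signal of 1185.

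The ecdysone hierarchy was the list with the largest share of genes holding an intragenic summit among the 16 lists. Of its 20 genes 15 did, with 93 summits in all, and the replicates gave 14, 16 and 14. Its median ground per gene was 26.3 kb, so the share of 58.0% among all genes with 20 to 40 kb of ground is a nearer comparison than the 10.1% of all genes. The list was chosen with results of these data known and is not independent evidence.

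Nuclear receptor genes held many of these summits. EcR, the ecdysone receptor gene, had 10, with 7, 10 and 11 in the replicates. Its strongest, at 6134722, had a signal of 408 but only 13.2 in replicate 1, against 152 and 130 in replicates 2 and 3, so it rests on those replicates. usp, the gene of the receptor's partner, had 1514 bp of ground and none. Eip75B had the 27 given above, and Hr3 had 3, with a highest signal of 255.

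ftz-f1, which gives the prepupa its competence to respond to the next ecdysone pulse, had 11, with 10, 7 and 10 in the replicates. The strongest is the summit with the AATCTAGGTCA site printed above, 5567 bp from the start. The next, at 18771677, had a signal of 484 but 46.1 in replicate 1, against 162 and 156 in the others. Hr4, whose product is a repressor in the same hierarchy, had 6, all of them in the first intron of a transcript and in all 3 top lists. Those at 1951916 and 1947750 had signals of 1220 and 998. Eip78C had 5, and the summit at 21253895 had a signal of 1303 and the next had 246. Hr39 had 2, with a highest signal of 206.

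Of the early genes, Eip74EF, an Ets factor gene, had 11, with 10, 10 and 9 in the replicates and a highest signal of 423. Of its 11, 5 were missing from 1 of the 3 top lists. br, the Broad-Complex gene, had 2 in 40649 bp of ground, fewer than Eip74EF in its 34531 bp. Smr, a corepressor gene, had 7 with a highest signal of 655, Eip63E, a cyclin-dependent kinase gene, had 4, and Blimp-1, a repressor gene that times ftz-f1 expression, had 2. Kr-h1, a gene of the juvenile hormone response, had 1 with a signal of 554, and tai, a coactivator gene, had 1 with 387. Eip93F, which specifies adult development, had 1 with a signal of 94.1, found in replicate 2 alone. Besides usp, the genes with none were crc, MsrA, Cth and Eip63F-1, of which Eip63F-1 had 17703 bp of ground.

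**Figure D5:**
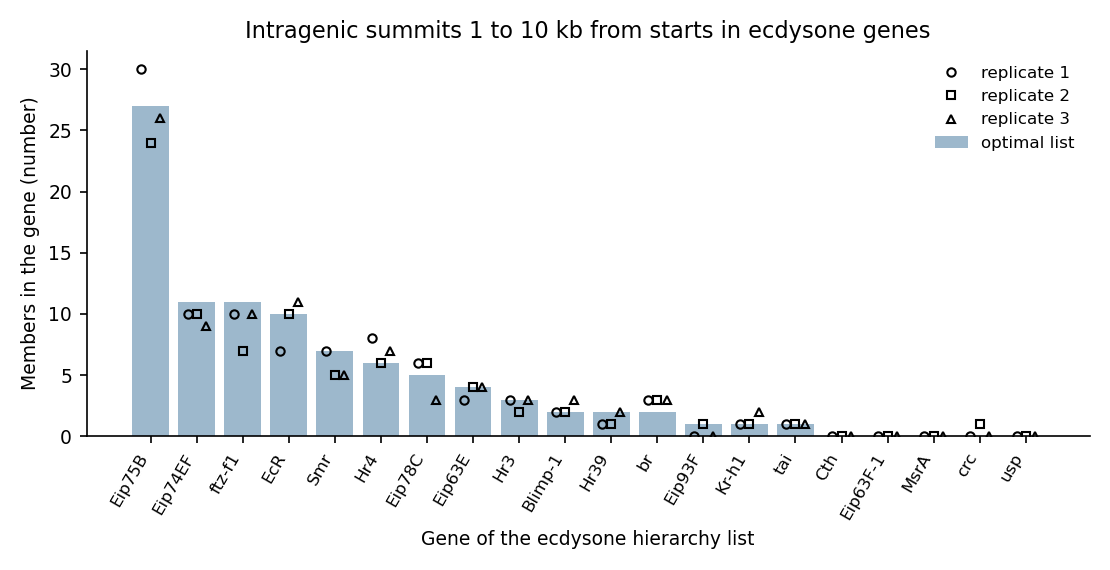
Number of intragenic summits in each of the 20 genes of the ecdysone hierarchy list. Bars are the optimal list and open symbols the 3 replicates' top lists. Eip75B has 27, Eip74EF and ftz-f1 have 11 each, EcR has 10, and 5 genes have none.

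Of the other nuclear receptor genes, 12 had ground and 2 of these held 1 summit each, knrl (signal 153) and svp (92.8, in 1 replicate), and ERR had none. Their median ground was 5.55 kb, and 18.9% of all genes with 5 to 10 kb of ground held one.

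Summits were present in genes of several signalling pathways. Of 21 genes of Dpp, Hedgehog and Wingless signalling, 13 held 65 intragenic summits, 1.68 per 10 kb of ground (95% exact Poisson interval 1.30 to 2.14), against 0.493 over all ground of the rule. shn had a highest signal of 1115, the ligand gene dpp had 3 with 936, and sbb, the gene of a nuclear corepressor, had 8 with 773. Med, with 1355 bp of ground, had none. Of 16 genes of EGF receptor and Notch signalling, 10 held 45, or 1.59 per 10 kb (1.16 to 2.12), with 10 genes in every replicate. The highest signals were in mam, the gene of the Notch coactivator Mastermind (12 summits, 730), in aop, an Ets repressor gene (6, 659), and in Egfr, the receptor gene (9, 412), and H had none. In the Hippo pathway, which limits growth, 4 of 13 genes held 18, or 1.63 per 10 kb (0.965 to 2.57). They included ex (4 summits, highest signal 792), kibra (6, 415) and the kinase gene wts (5, 293), and Mer had none.

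Summits were also found in genes of tissue remodelling, growth and cell death. Of 19 genes of disc eversion and matrix 7 held 20, or 0.951 per 10 kb of ground (0.581 to 1.47). They included puc, a JNK phosphatase gene (5, highest signal 645), kay, the Fos gene (6, 331), and Mmp2, a matrix metalloprotease gene (4, 269). Col4a1 had none. In insulin and TOR signalling 3 of 15 genes with ground did, the kinase gene S6k (1, signal 426), foxo (2, 326) and the receptor gene InR (4, 150), and Akt did not. In autophagy 3 of 15 did, Atg1 (2, 468), Atg5 (1, 401) and Atg17 (3, 113), and Atg10 did not. In cell death, Diap1, an inhibitor of apoptosis (2, 196), was the single gene of 15, and Buffy had none. The median ground per gene was 3.91 kb in the insulin and TOR list, 2.27 kb in autophagy and 0.996 kb in cell death, and summits were found in 5.54% of all genes with 2 to 5 kb and 0.495% of those under 2 kb. Per 10 kb these lists held 0.666, 1.01 and 0.485, each with a counting interval that includes the 0.493 of all ground. Genes with 2 to 5 kb of ground held 0.200 per 10 kb. That is below the intervals of the insulin and TOR list (0.268 to 1.37) and of autophagy (0.370 to 2.19). These lists also include larger genes, such as InR with 35902 bp of ground, so neither value is a matched comparison.

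Of the chromatin lists, 5 of 16 genes of the Polycomb and trithorax groups held 18. Trl (3, highest signal 1645), Psc (1, 1097) and trx (4, 714) were the strongest, and Asx had none. In the Brahma complex, osa alone of 10 held any (5, 149), and Bap111 had none. Among 10 Hox and partner genes 4 did, Antp (6, 323), hth (4, 158) and Abd-B (2, 140) with the highest signals, and Dfd had none. Of 10 clock genes 5 did, among them vri, a bZIP repressor gene with 10 summits in 17277 bp of ground and a highest signal of 749. The others included dco (1, 277) and Pdp1 (4, 235), and Clk had none. Per 10 kb of ground the Polycomb and trithorax list held 1.27 (0.754 to 2.01) and the clock list 1.22 (0.708 to 1.95). The Brahma list held 1.00 (0.325 to 2.34) and the Hox list 0.712 (0.379 to 1.22). The last 2 intervals include the 0.493 of all ground. The 1 of 10 Brahma genes is also near the 10.1% of all genes with ground.

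Neural and muscle lists were also set beside the 0.493 per 10 kb of all ground. Of 21 genes of axon guidance and adhesion, 14 held a summit, and with 41 in 783 kb of ground this was 0.524 per 10 kb (0.376 to 0.711), close to that value. kirre had 8 with a highest signal of 597, Ten-a had 7 with 572, NetB had 3 with 311, and Lar had none in 53532 bp. Ion channel genes had 0.139 per 10 kb (0.0378 to 0.355), below it, with 3 of 14 genes occupied, Irk1 (2, 824), Shal (1, 128) and Shaw (1, 108), and none in Hk. Muscle genes had 0.442 per 10 kb (0.202 to 0.840), close to it, with 3 of 17 occupied, Mef2 (5, 267), how (1, 163) and Zasp52 (3, 148), and none in Act57B. Whole animals were used, so the share of each tissue in the material was not measured.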

How the data were processed

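ChIP-seq of Eip75B-eGFP was done in 1 group of 3 biological replicates, numbered as in the labels. The authors deposited, per the labels and the text files beside them, a list of 30000 regions with background for each replicate and for the pooled replicates, made as input for IDR (the irreproducible discovery rate), and a list of 7803 optimal peaks, on dm6. All lists were derived with the same control file. Aligner, peak caller, IDR threshold and read depth: not given in the sources used here. Signal is the authors' deposited value per region, used to rank peaks within a list. Lists on dm3 and the deposited q-values were not used.

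A summit is the deposited start plus offset, printed 1-based. Gene models were Ensembl release 115 (FlyBase 6.54), and sequence was Release 6 from RefSeq. Every transcript start of the 13945 protein-coding genes on 6 arms was used, and a base in several kinds of feature was called coding before 5′ UTR, 3′ UTR and intron, in that order. An intron, for its length, is a run of bases that is intron in all models. A replicate's top list is its 7803 regions of highest signal, and a summit was found in a replicate when it lay in such a region. Replicate means ± SD apply the rule to each top list. Differences were tested by an exact sign-flip permutation test over the 3 replicates, two-sided, which cannot go below p = 0.25. Intervals are 95% exact Clopper-Pearson for shares and exact Poisson for densities. Peaks share libraries and are not replicates, so no test was run over them. In all, 14 motifs and 16 gene lists were used.

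Named genes were the hosts of the 15 strongest summits, the 5 genes with most, the ecdysone list, up to 3 genes per other list with the strongest summits and the first in alphabetical order with ground and none, and the hosts of the 5 strongest summits near non-coding starts. The summits, the lists and the rules were chosen with earlier results of these data known. The symbols yan, d and Unc-89 were matched as aop, dachs and Obsc. Functions were checked on simulated data. Alternatives were a stricter list, leaving out each replicate, 1 start per gene, starts of all genes, a lower bound of 2 kb, merged regions, other windows, flanks and overlap rules, and log2 signal. Leaving out a replicate means keeping the optimal summits that lay in the top lists of both others. For recurrence it means that all optimal summits were kept and only the other top lists were counted. Tools were Python 3.11.15, numpy 2.4.6, pandas 2.3.3, scipy 1.17.1 and matplotlib 3.10.9.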

Additional observations from a re-analysis of the deposited data

How the results depend on the processing

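Of 126 values over 16 results and their alternatives, 85 did not change their verdict. For differences with a test, 46 values, that means the same sign and no claim on size, since no p could fall below 0.25. For the other 39 it means a move within the spread between replicates, or within 1.5 times for a count. The rest follow, and the cause was not tested unless stated. With the 3901 optimal peaks of highest signal, a shorter list by construction, 1170 intragenic summits were left, the intron share was 97.6%, the share of host genes with a promoter summit 41.1%, the share within 1 kb of another summit 21.1%, the share found in all 3 replicates 95.3% and the difference in the excess of the E75/Hr3 site from promoter summits -0.0389 percentage points, opposite in sign to the 0.0462 of the whole list. That difference was also reversed with 1 start per gene (-0.197), with a lower bound of 2 kb (-0.0312) and with the flank to the right (-0.0189).

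Some differences kept their sign and moved in size. The excess of the E75/Hr3 site, 0.258 percentage points, was 0.0806 with 1 start per gene, 0.180 with a lower bound of 2 kb, 0.601 with a window of 100 bp, 0.417 with 1 summit per merged region and 0.300 to 0.417 leaving out a replicate. That of AGGTCA, 0.730, was 1.44 with a lower bound of 2 kb, 1.11 in the stricter list and 0.954 to 1.20 leaving out a replicate. The rank difference from promoter summits, -0.910 points, was -8.20 in the stricter list and -4.84 to -2.24 leaving out a replicate, and that from intergenic summits, 1.14, was 0.727 to 3.18.

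Leaving out each replicate kept the optimal summits found in both other top lists, 5642 to 5815, fewer than the optimal list. Their positions and signals still came from the list made with all replicates, so the left-out replicate was not removed from the peak calls. The intron shares were 97.4% to 97.7% and the downstream shares 69.5% to 69.8%. A promoter summit was present at 49.5% to 53.7% of host genes, and 26.3% to 28.1% of summits lay within 1 kb of another. The density ratio to intergenic ground was 0.900 to 0.949. With all optimal summits kept, 71.6% to 75.5% of the intragenic ones were found in both remaining lists. The recurrence difference from intergenic summits was -3.63 to 0.283 percentage points, reversed without replicate 1.

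With 1 start per gene the share of summits was 31.8%, the density ratio to intergenic ground 1.05 and to promoter ground 0.479, the intron share 94.2%, the downstream share 78.0%, the share of host genes with a promoter summit 50.2%, the share near another summit 34.9% and the rank difference from promoter summits 0.167, reversed. A lower bound of 2 kb gave 21.3%, 1.01, an intron share of 97.7% and a downstream share of 69.7%. With 1 summit per merged region the downstream share was 69.2%. With the starts of all genes the ratio to intergenic ground was 1.00. Overlap by at least 50% gave 58.2% found in all 3 replicates, and whole lists 96.5%. Another summit lay within 500 bp of 15.9%. The number of ecdysone genes holding a summit stayed within 1.5 times of 15, and the density ratio to promoter ground below 1, in all alternatives tried for them.

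The depth is unknown, 3 replicates allow no p below 0.25, and shares of rare motifs rest on few summits, 16 for the E75/Hr3 site. No paired analysis was possible because there is 1 group.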

Other observations

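Starts of genes that are not protein-coding were not part of the rule, and such a start was within 1 kb of 107 intragenic summits (4.59%, 95% exact Clopper-Pearson interval 3.78% to 5.52%). Their density on that ground was 74.2 per Mb, against 48.5 on the rest, and their median signal was 177 against 165. The rest includes coding exons, at 1.06 per Mb, and all intron ground had 77.4 per Mb. No excess over introns in general was therefore shown. The replicates gave a share of 4.51% ± 0.366 (SD, n = 3). Genes annotated as ncRNA accounted for 89, tRNA genes for 13, small nucleolar RNA genes for 4 and small nuclear RNA genes for 1. The strongest lay in LpR2 (signal 1506), 154 bp from the start of lncRNA:CR46102, in Zw, the gene of glucose-6-phosphate dehydrogenase (1177), 859 bp from asRNA:CR44512, in mbl, the gene of the splicing factor Muscleblind (1024), 399 bp from lncRNA:CR45997, in beat-Ib (823), 410 bp from lncRNA:CR44867, and in Prps (767), 662 bp from asRNA:CR45804. In puc the strongest intragenic summit, with a signal of 645, lay 92 bp from lncRNA:CR44331. That summit was named after its values were seen.

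Among all 2080 words of 6 bases, counted on both strands, those with the largest excess at intragenic summits over the flank were made of A and T alone. TTAAAA was within 50 bp of 30.1% of the summits and 12.1% of the flanks, ATATTA of 19.0% and 5.80%, and AAATAT of 29.8% and 14.6%. The excess of TTAAAA was 19.3, 17.0 and 16.4 percentage points in the replicates. At promoter summits TTAAAA was in 28.1%, and in 16.3% of their flanks. At the other end, GCAGCA was in 5.07% of the intragenic summits and 12.3% of their flanks. These words were picked after all had been ranked, so the values describe the base composition given above and are not independent of it.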
